A study of Mus musculus with 4 samples.

Results

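The genes described here are 36 genes of protein folding and quality control in the endoplasmic reticulum (ER): 15 chaperones and disulphide isomerases, 10 genes of ER-associated degradation (ERAD), 4 genes of the unfolded protein response sensors and 7 translocon genes. They were picked out by gene name from the 35522 genes of the tables, with earlier results of these data known, and all 36 were among the 13303 genes tested. RNA of mouse liver was sequenced in 2 libraries of Dph1 KO and 2 of Control, all of strain C57BL/6 and all taken 1 day after diethylnitrosamine (DEN), a carcinogen that the liver converts into a DNA-alkylating agent. Dph1 is needed for the first step of making diphthamide, which is a histidine of the elongation factor eEF2 that the cell modifies. The comparison asks how the loss of Dph1 relates to the expression of these genes soon after DEN. Livers without DEN were not analysed here. The labels give neither the deleted part of Dph1, nor the cells that lost it, nor the age of the mice, and they do not say that libraries of one genotype came from separate mice. The p-values therefore measure only the spread between these libraries, which may be technical.

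Secreted and membrane proteins enter the ER through the SEC61 channel, with which the translocon-associated protein (TRAP) complex of the Ssr genes works. Inside, chaperones such as BiP (Hspa5), the lectins calnexin and calreticulin, and protein disulphide isomerases fold them, and ERAD passes those that fail to the cytosol for destruction by the proteasome. The sensors IRE1, PERK and ATF6 raise many of these genes when unfolded proteins build up. The hepatocyte, which secretes most plasma proteins, carries much of this machinery.

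The promoters of several of these genes carry the ER stress response element (ERSE), to which ATF6 and XBP1 are known to bind with the factor NF-Y. Promoter sequences came from RefSeq (GRCm38.p6), as windows of 300 bases from 250 bases before to 50 after the gene start, and 30 of the 36 genes had an entry. The motif, CCAAT followed after any 9 bases by CCACG, was searched on both strands and was found in 9 of the 30. The sites are shown because they are the sequences that link these genes. Capitals mark the letters fixed by the motif, and each site is written on the strand where it reads as the motif:

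Hspa5: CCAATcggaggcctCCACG

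Hsp90b1, farther from the start: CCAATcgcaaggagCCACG

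Hsp90b1, nearer to the start: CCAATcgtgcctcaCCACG

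Dnajc3: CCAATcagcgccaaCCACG

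Creld2: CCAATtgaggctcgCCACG

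Calr: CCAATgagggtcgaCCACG

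Canx: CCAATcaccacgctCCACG

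Pdia6: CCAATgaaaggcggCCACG

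Derl3: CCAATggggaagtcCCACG

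Syvn1: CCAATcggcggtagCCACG

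The whole windows of Hspa5 and Derl3 are printed because, of the 9 genes with this motif, Hspa5 had the highest and Derl3 the lowest fold change. The Hspa5 window lies on the plus strand at chr2:34771840-34772139, with its site at chr2:34772025-34772043, 65 to 47 bases before the start. The Derl3 window lies on the plus strand at chr10:75893148-75893447, with its site at chr10:75893242-75893260, 156 to 138 bases before the start. The Derl3 site reads as the motif on the minus strand, so it stands reversed and complemented in the window. Both windows run 5′ to 3′ on the strand of the gene, with the motif's fixed letters in capitals:

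Hspa5 promoter: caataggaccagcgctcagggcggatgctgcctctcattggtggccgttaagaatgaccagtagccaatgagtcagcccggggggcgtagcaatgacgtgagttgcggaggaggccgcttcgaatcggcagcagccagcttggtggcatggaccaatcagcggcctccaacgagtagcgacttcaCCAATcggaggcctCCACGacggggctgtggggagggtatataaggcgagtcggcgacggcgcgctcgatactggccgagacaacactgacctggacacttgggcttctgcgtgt

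Derl3 promoter: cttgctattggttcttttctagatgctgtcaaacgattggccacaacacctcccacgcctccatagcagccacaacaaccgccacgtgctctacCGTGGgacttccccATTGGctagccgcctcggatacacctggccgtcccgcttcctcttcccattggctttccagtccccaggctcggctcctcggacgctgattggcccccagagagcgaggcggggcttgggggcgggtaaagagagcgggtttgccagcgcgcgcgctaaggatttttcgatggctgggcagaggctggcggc

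The libraries held 20410978 and 21137358 reads in genes in Dph1 KO and 19474596 and 20355790 in Control. Dph1 itself had 17.8 and 31.5 CPM in Dph1 KO and 70.3 and 68.3 CPM in Control, where CPM are read counts scaled to a common library total with TMM factors (log2 fold change -1.49 with an SE of 0.26 and an edgeR adjusted p of 0.0107). The 15 hepatocyte markers searched, Alb, Ttr and Cps1 among them, were all tested and none was called (edgeR; at an unadjusted p under 0.05, 1 was higher and 1 lower). Their summed TPM (a level per length) was 135833 and 133600 in Dph1 KO and 122325 and 125291 in Control, while their summed CPM was 92500 and 103548 in Dph1 KO and 106038 and 120041 in Control, which turns the direction. Of the markers tested for other cell types, 1 of 13 for macrophages, 3 of 9 for endothelial cells and 3 of 9 for stellate cells fell, 1 of 4 for erythroid cells rose and 1 fell, and none of 4 for neutrophils, 2 for T and NK cells or 5 for bile duct cells was called. Over all tested genes 4.86% rose and 7.47% fell by the edgeR test defined below. With the GC and length trend removed, 5.45% of genes rose and 6.16% fell. In that fit 1 of 12 macrophage, 3 of 9 endothelial and 1 of 9 stellate markers fell. Of 3 erythroid markers 1 rose and 1 fell, and 1 of 15 hepatocyte markers rose. The neutrophil markers summed to 256 and 1241 TPM in Dph1 KO and 394 and 335 TPM in Control. Among tested protein-coding genes the fold change ran with the GC content of the transcript (Spearman rho -0.62 across 11513 genes, which are not independent). Without TMM scaling the median log2 fold change of all genes moved by 0.26, which turns the sign of members near 0.

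None of the 36 genes rose and 4 fell in Dph1 KO livers: the derlin gene Derl3, the mannosidase-like gene Edem2, the TRAP subunit gene Ssr2 and the co-chaperone gene Sdf2l1. Here "rose" and "fell" mean that the quasi-likelihood test of edgeR gave a p under 0.05 after Benjamini-Hochberg adjustment over all tested genes, and log2 fold changes are Dph1 KO over Control. Over all tested genes, 4.86% rose and 7.47% fell. At an unadjusted p under 0.05, 7 members were higher and 4 lower in Dph1 KO, where 16.3% and 17.9% of all tested genes were. DESeq2 called 4 members higher, where 5.17% of its genes were, namely Hspa5, Hsp90b1, Edem1 and Edem3. It called 4 lower, where 11.2% of its genes were. Of the 36 members, 15 had both Dph1 KO libraries above both Control libraries and 11 had both below, where 34.9% and 32.5% of all tested genes did (26 of the 36 did not overlap, beside 67.4% of all genes). The members' median log2 fold change was 0.12, beside 0.041 over all tested genes. An exact permutation test of 2 against 2 libraries cannot give a p under 0.333. The calls therefore rest on the spread that edgeR estimated for each gene with information shared over all genes. The common coefficient of variation was 18.5%.

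**Figure D1:**
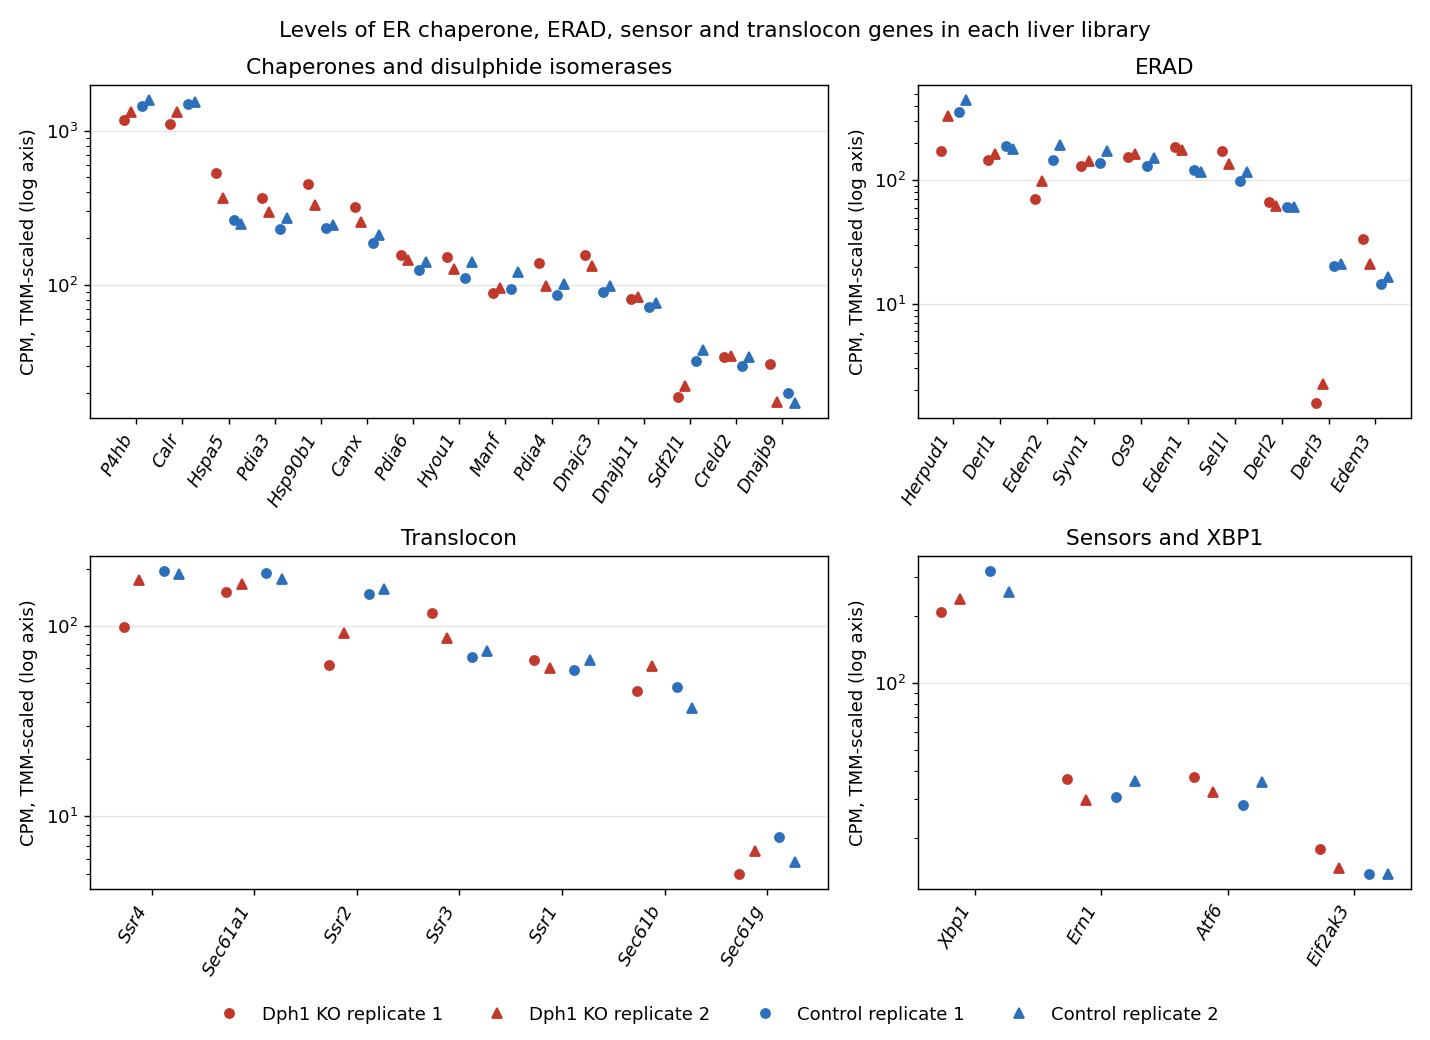
TMM-scaled CPM (log axis) of each gene in each library, by role, with Dph1 KO in red left of Control in blue and replicate 1 as a circle and replicate 2 as a triangle. Derl3 is the member whose genotypes lie farthest apart, at 1.57 and 2.24 CPM in Dph1 KO and 20.1 and 20.9 CPM in Control.

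The classes were mixed in direction. Of the 15 chaperones and isomerases 11 had a positive fold change and 1 fell, with a median of 0.18 on the log2 scale. The 10 ERAD genes split into 5 positive and 5 negative with 2 that fell, and their median was -0.051. The 4 sensor genes had a median of 0.064 and none was called, also at an unadjusted p under 0.05 in edgeR. Of the 7 translocon genes 3 were positive, 4 negative and 1 fell, with a median of -0.20. Differences between the classes were not tested, and each median is to be read beside 0.041 over all tested genes. The counts are to be read beside 7005 of 13303 tested genes with a positive fold change and 7.47% that fell.

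**Figure D2:**
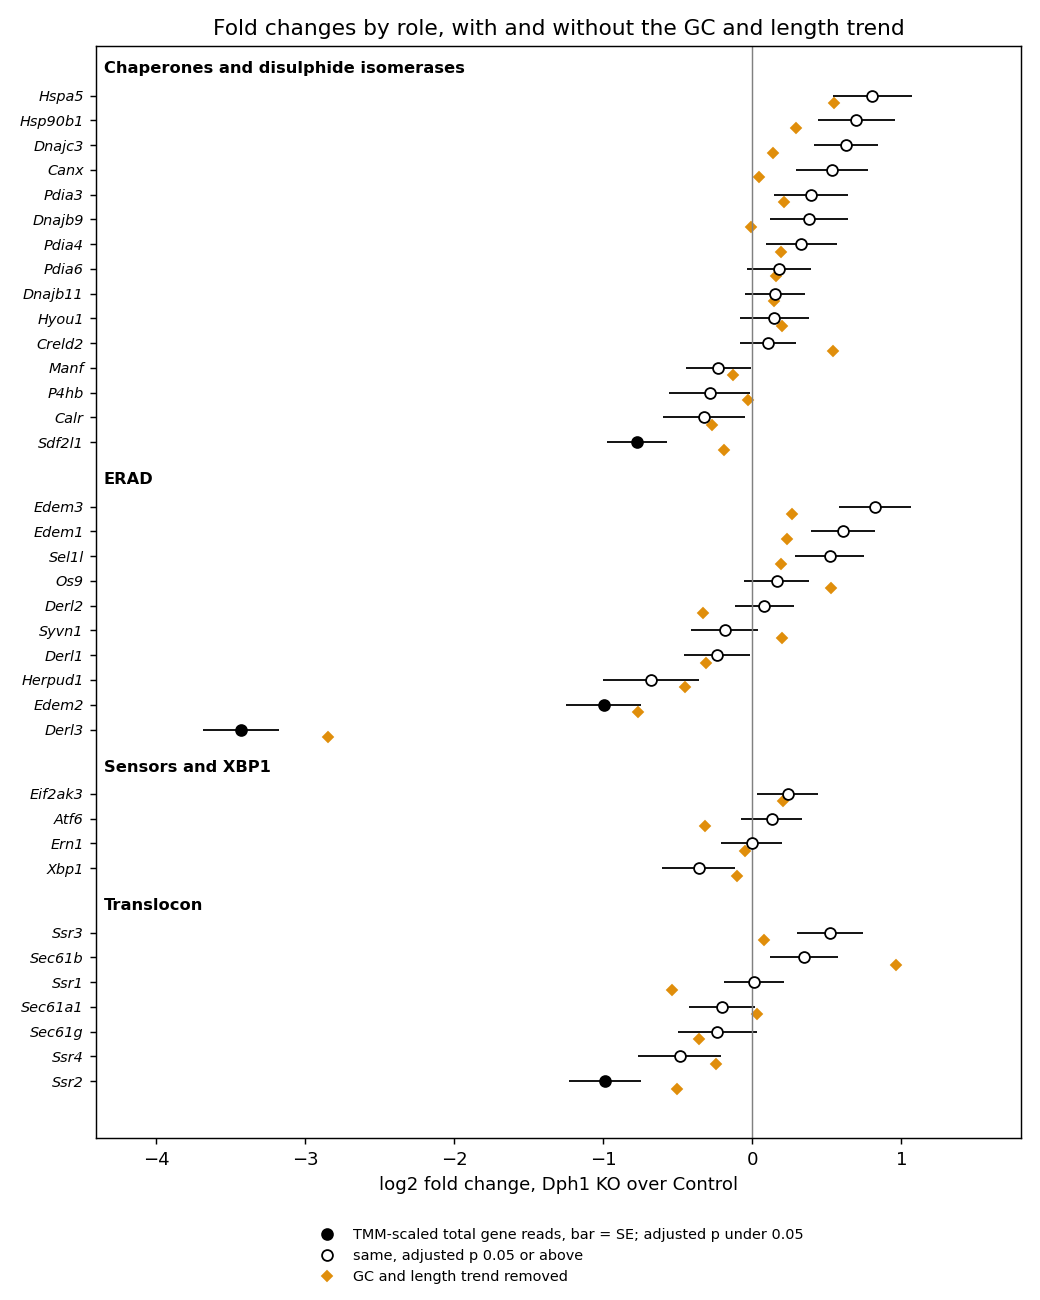
Log2 fold change of each member, Dph1 KO over Control, grouped by role; circles are TMM-scaled total gene reads with SE bars (filled at an adjusted p under 0.05), and orange diamonds are the same reads after removal of the trend with GC content and length. Derl3, Edem2, Ssr2 and Sdf2l1 are filled, and Sdf2l1 is the filled gene whose diamond lies nearest to 0, at -0.19.

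Hspa5 encodes BiP, the main chaperone of the ER and the regulator of the stress sensors. Hspa5 had 529 and 367 CPM in Dph1 KO livers and 262 and 250 CPM in Control livers. Both Dph1 KO libraries stood above both Control libraries, with replicate 1 well above replicate 2. The means were 448 ± 115 CPM in Dph1 KO and 256 ± 8.99 CPM in Control (SD, n = 2 each). The log2 fold change was 0.81 (SE 0.27), and at an edgeR adjusted p of 0.0669 it did not pass. The log2 fold change lay between 0.54 and 1.06 with each library left out, and was highest without Dph1 KO replicate 2.

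Hsp90b1, which encodes the ER form of HSP90 (GRP94), gave much the same picture. Its level was 451 and 328 CPM in Dph1 KO and 234 and 246 CPM in Control (log2 fold change 0.70 with an SE of 0.26 and an edgeR adjusted p of 0.0881). Dnajc3, a J-domain co-chaperone of BiP that also inhibits the kinase PERK, had 157 and 133 CPM in Dph1 KO and 90.2 and 97.8 CPM in Control (log2 fold change 0.63 with an SE of 0.22 and an edgeR adjusted p of 0.0741). In both genes the genotypes did not overlap. With upper quartile scaling Hspa5 and Dnajc3 were called higher, where 8.06% of all genes were. With no scaling all 3 were, where 19.8% of all genes were.

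Sdf2l1, which binds the J-domain co-chaperones of BiP, moved the other way and was the only chaperone gene that fell. It had 442 and 483 reads, or 18.7 and 22.1 CPM, in Dph1 KO and 590 and 677 reads, or 32.1 and 37.7 CPM, in Control. The genotypes did not overlap, with 20.4 ± 2.38 CPM in Dph1 KO and 34.9 ± 3.93 CPM in Control (SD, n = 2 each). Sdf2l1 (gene ID 64136, GRCm38 chr16:17130138-17132383) had a log2 fold change of -0.77 (SE 0.20; edgeR adjusted p = 0.036). With the trend on GC content and length removed the value was -0.19 (edgeR adjusted p = 0.45). The call was also lost without Control replicate 1 (edgeR adjusted p = 0.0931), without Control replicate 2 (edgeR adjusted p = 0.287) and with no scaling.

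The other 5 co-chaperones were not called. Hyou1, a large HSP70 relative that exchanges the nucleotide of BiP, had 152 and 127 CPM in Dph1 KO and 111 and 140 CPM in Control, which overlap. Dnajb9, a J-domain protein that restrains IRE1, had 30.7 and 17.6 CPM in Dph1 KO and 20.0 and 17.1 CPM in Control, so only Dph1 KO replicate 1 stood apart. Of its reads 88.5% were uniquely matched.

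Dnajb11, a J-domain protein that hands substrates to BiP, had 81.5 and 83.6 CPM in Dph1 KO and 72.1 and 76.5 CPM in Control, a log2 fold change of 0.15 (SE 0.20). Creld2, an ER protein induced by ER stress, had 34.1 and 34.5 CPM in Dph1 KO and 29.8 and 34.0 CPM in Control. Its log2 fold change was 0.11, and 0.54 with the GC and length trend removed (edgeR adjusted p = 0.0508). Manf, a BiP-binding factor that can be secreted, had 89.0 and 96.2 CPM in Dph1 KO and 94.6 and 122 CPM in Control, and its log2 fold change was -0.23 with TMM but 0.037 with no scaling. Summed over the 9 ER chaperones and co-chaperones, the level per length was 1191 and 755 TPM in Dph1 KO and 545 and 544 TPM in Control, and 1544 and 1209 CPM against 946 and 1022 CPM. Hspa5 and Hsp90b1 are the most abundant of the 9 per length, and Dph1 KO replicate 1 was the highest library on both scales.

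Among the lectin chaperones, Calr (calreticulin) was the most abundant member per length, with a mean of 1191 TPM over all libraries. It had 1101 and 1314 CPM in Dph1 KO and 1483 and 1540 CPM in Control, and its log2 fold change was -0.32 (SE 0.28; edgeR adjusted p = 0.419) on TMM-scaled reads but 0.057 on log2(TPM + 1). Canx (calnexin), its membrane-bound relative, had 320 and 256 CPM in Dph1 KO and 188 and 211 CPM in Control (log2 fold change 0.53 with an SE of 0.24 and an edgeR adjusted p of 0.147). Both Dph1 KO libraries stood above both Control libraries for Canx, but with the GC and length trend removed the value was 0.048.

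None of the 4 disulphide isomerase genes was called, also at an unadjusted p under 0.05 in edgeR or by DESeq2. P4hb, the isomerase PDI that is also the beta subunit of prolyl 4-hydroxylase, had 1164 and 1321 CPM in Dph1 KO and 1454 and 1577 CPM in Control, a log2 fold change of -0.29 (SE 0.27) that was 0.098 on log2(TPM + 1). Pdia3, which works with calnexin and calreticulin on glycoproteins, had 367 and 295 CPM in Dph1 KO and 232 and 272 CPM in Control (log2 fold change 0.39 with an SE of 0.25 and an edgeR adjusted p of 0.276). Pdia4 had 139 and 97.7 CPM in Dph1 KO and 86.2 and 102 CPM in Control, which overlap. Pdia6 had 155 and 146 CPM in Dph1 KO and 126 and 140 CPM in Control, with the genotypes apart by less than the spread within Control. The 4 isomerases together held 1577 and 1295 TPM in Dph1 KO and 1180 and 1189 TPM in Control, but 1825 and 1859 CPM in Dph1 KO and 1898 and 2090 CPM in Control, so the direction of the sum turned with the scale.

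The largest difference among the 36 genes was in ERAD. Derl3 encodes one of 3 derlins, membrane proteins that help misfolded proteins leave the ER. Derl3 had 37 and 49 reads in Dph1 KO livers and 370 and 376 reads in Control livers, which is 1.57 and 2.24 CPM in Dph1 KO and 20.1 and 20.9 CPM in Control. The genotypes were far apart, at 1.90 ± 0.476 CPM in Dph1 KO and 20.5 ± 0.557 CPM in Control (SD, n = 2 each). Derl3 (gene ID 70377, GRCm38 chr10:75893398-75895941) fell by 3.43 on the log2 scale (SE 0.25; edgeR adjusted p = 3.01e-05), to 0.0928 of the Control level. It ranked 53 of the 994 genes that fell by the size of the fall. It fell under every count fit on gene or exon reads, at -3.69 to -3.17 with each library left out and at -2.85 with the GC and length trend removed (edgeR adjusted p = 2.57e-05). It did not pass in the limma fits on deposited TPM, which called 3 genes over all with log2(TPM + 1). In bulk liver, fewer cells of a type and less RNA per cell cannot be told apart.

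The other derlins differed less in value. Derl1 had 146 and 165 CPM in Dph1 KO and 188 and 178 CPM in Control, a log2 fold change of -0.24 (SE 0.22) with TMM that was 0.019 with no scaling. Derl2 had 67.3 and 61.8 CPM in Dph1 KO and 60.9 and 61.2 CPM in Control (log2 fold change 0.082, SE 0.20). Neither was called. Per length, Derl3 was the least abundant derlin in both genotypes, at 2.38 and 2.97 TPM in Dph1 KO and 23.6 and 22.3 TPM in Control, where Derl2 had 37.6 and 28.7 TPM in Dph1 KO and 25.2 and 23.1 TPM in Control. In Control livers Derl3 and Derl2 were thus close to each other, and in Dph1 KO livers they were not.

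**Figure D3:**
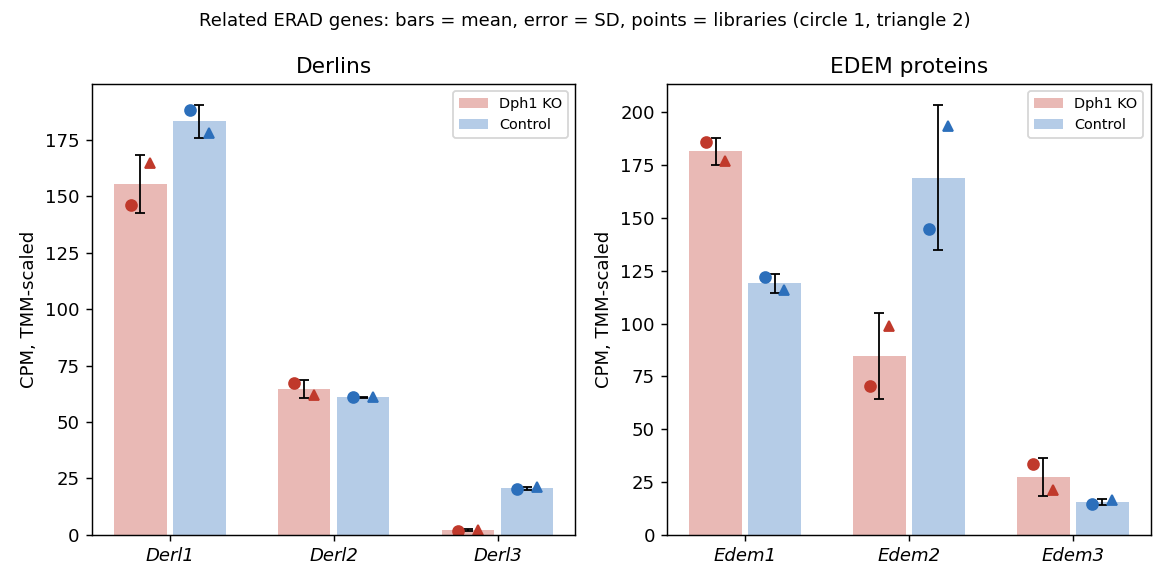
TMM-scaled CPM of the derlin and EDEM genes; bars are means, error bars SD and points the 2 libraries, with Dph1 KO in red left of Control in blue. Derl3 (1.90 CPM in Dph1 KO and 20.5 CPM in Control) and Edem2 (84.7 CPM in Dph1 KO and 169 CPM in Control) are lower in Dph1 KO, while Edem1 and Edem3 have both Dph1 KO libraries above both Control libraries.

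The 3 EDEM genes, whose proteins trim mannose from glycoproteins to mark them for ERAD, went different ways. Edem2 (gene ID 108687, GRCm38 chr2:155701673-155729475) had 1660 and 2165 reads in Dph1 KO and 2663 and 3478 reads in Control, or 70.4 and 99.0 CPM in Dph1 KO and 145 and 193 CPM in Control. Each genotype had a wide spread, but the genotypes did not overlap. The log2 fold change was -0.998 (SE 0.25; edgeR adjusted p = 0.0345) and -0.76 with the GC and length trend removed (edgeR adjusted p = 0.0231). Without Control replicate 2, the higher of the Control libraries, it was no longer called (edgeR adjusted p = 0.267).

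Edem1 had 186 and 177 CPM in Dph1 KO and 122 and 116 CPM in Control, with libraries of each genotype close together (log2 fold change 0.61 with an SE of 0.22 and an edgeR adjusted p of 0.0803). Edem3 had 33.6 and 21.1 CPM in Dph1 KO and 14.4 and 16.5 CPM in Control (log2 fold change 0.82 with an SE of 0.24 and an edgeR adjusted p of 0.0508). Neither passed in this fit. With the GC and length trend removed the values were 0.23 for Edem1 and 0.27 for Edem3, neither called.

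The ligase complex of ERAD was not called either. Sel1l, the adaptor that holds the ubiquitin ligase HRD1, had 174 and 135 CPM in Dph1 KO and 98.9 and 116 CPM in Control (log2 fold change 0.52 with an SE of 0.23 and an edgeR adjusted p of 0.138). Syvn1, which encodes HRD1, had 131 and 142 CPM in Dph1 KO and 139 and 171 CPM in Control, and its log2 fold change of -0.18 with TMM was 0.078 with no scaling. Syvn1 overlaps the antisense gene Mrpl49 by 89 bases, and reads there are uncertain because no source used here says whether counting used strand.

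Herpud1, a membrane scaffold of the HRD1 complex and a strong target of the stress response, had 172 and 329 CPM in Dph1 KO and 356 and 446 CPM in Control. Both Dph1 KO libraries were lower, and replicate 1 was far below replicate 2. The log2 fold change was -0.68 (SE 0.32; edgeR adjusted p = 0.159), from -1.20 without Dph1 KO replicate 2 to -0.26 without Dph1 KO replicate 1. Os9, a lectin that delivers trimmed glycoproteins to the ligase, had 154 and 162 CPM in Dph1 KO and 130 and 153 CPM in Control (log2 fold change 0.16, SE 0.22). With the GC and length trend removed the Os9 value was 0.53 (edgeR adjusted p = 0.0503).

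No sensor gene was called. Xbp1, the transcription factor whose mRNA IRE1 splices, was the most abundant, with a mean of 238 TPM over all libraries. It had 209 and 239 CPM in Dph1 KO and 319 and 256 CPM in Control, a log2 fold change of -0.36 (SE 0.24; edgeR adjusted p = 0.31) on TMM-scaled reads that was 0.030 on log2(TPM + 1). The tables give no value for spliced against unspliced Xbp1, so its activation was not measured. Ern1, which encodes IRE1, had 36.8 and 29.9 CPM in Dph1 KO and 30.6 and 36.3 CPM in Control, which interleave.

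Atf6, the membrane-bound transcription factor released by proteolysis, had 37.8 and 32.3 CPM in Dph1 KO and 28.3 and 35.7 CPM in Control, which overlap. Eif2ak3, which encodes the kinase PERK, had 17.8 and 14.7 CPM in Dph1 KO and 13.8 and 13.8 CPM in Control (log2 fold change 0.24 with an SE of 0.20 and an edgeR adjusted p of 0.421). Both Dph1 KO libraries of Eif2ak3 lay above Control by a margin smaller than the difference between them. Per length, Eif2ak3 had the lowest level of the 36 genes, a mean of 5.44 TPM over all libraries.

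In the translocon, Ssr2 fell and the other 6 genes were not called. Ssr2 (gene ID 66256, GRCm38 chr3:88579671-88588413), the beta subunit of TRAP, had 1466 and 2000 reads in Dph1 KO and 2704 and 2827 reads in Control, or 62.1 and 91.5 CPM in Dph1 KO and 147 and 157 CPM in Control. The genotypes did not overlap, and the log2 fold change was -0.99 (SE 0.24; edgeR adjusted p = 0.0309). With the GC and length trend removed it was -0.50 (edgeR adjusted p = 0.0424). Without Control replicate 1 (edgeR adjusted p = 0.0778) or Control replicate 2 (edgeR adjusted p = 0.151) it was not called.

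The other TRAP subunits gave values of both signs. Ssr1, the alpha subunit, had 66.2 and 60.3 CPM in Dph1 KO and 58.8 and 66.5 CPM in Control, so the log2 fold change of 0.015 with TMM was -0.016 with DESeq2 size factors. Ssr3, the gamma subunit, had 117 and 86.2 CPM in Dph1 KO and 68.4 and 73.5 CPM in Control (log2 fold change 0.52 with an SE of 0.22 and an edgeR adjusted p of 0.128). Ssr4, the delta subunit, had 99.2 and 174 CPM in Dph1 KO and 194 and 188 CPM in Control (log2 fold change -0.49 with an SE of 0.28 and an edgeR adjusted p of 0.235), with Dph1 KO replicate 1 far below the others. Their transcripts differ in GC content, at 44.6% for Ssr1, 55.7% for Ssr2, 40.8% for Ssr3 and 51.6% for Ssr4. They also differ in exon length, at 9306 bases for Ssr1, 1183 for Ssr2, 2885 for Ssr3 and 804 for Ssr4. With the trend on GC content and length removed, Ssr1 was called as lower (-0.54, edgeR adjusted p = 0.0428).

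Sec61a1, the pore subunit of the channel, had 152 and 167 CPM in Dph1 KO and 190 and 176 CPM in Control, a log2 fold change of -0.20 (SE 0.22) with TMM that was 0.055 with no scaling. Sec61b had 45.8 and 61.9 CPM in Dph1 KO and 47.6 and 37.1 CPM in Control, which overlap (log2 fold change 0.35 with an SE of 0.23 and an edgeR adjusted p of 0.296). With the GC and length trend removed Sec61b was called as higher, at 0.96 (edgeR adjusted p = 0.00849), and it was the only member called higher in that fit. Sec61g had 4.96 and 6.59 CPM in Dph1 KO and 7.83 and 5.73 CPM in Control, and only 59.4% of its reads were uniquely matched, against 89.9% for Sec61b and at least 99.7% for the members other than these and Dnajb9.

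The fold changes of the members followed the GC content of their transcripts, as did those of all genes. Across the 36 members the Spearman correlation of fold change with GC content was -0.65 and Pearson's r was -0.60, a description of genes measured in the same libraries. With exon length the Spearman correlation was 0.52 and Pearson's r was 0.40. The 12 members with the lowest GC content (40.6% to 46.2%) had a median log2 fold change of 0.53, and 11 of them were positive. The 12 with the highest (53.0% to 57.3%) had a median of -0.32, and 3 were positive. All protein-coding genes in these GC ranges had medians of 0.39 (2685 genes) and -0.34 (2518 genes). The libraries deviated from the mean of all 4 along GC content by Spearman rho of -0.69 and -0.18 in Dph1 KO and 0.52 and 0.56 in Control, so the trend runs with genotype and cannot be told apart from it in 2 against 2 libraries.

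**Figure D4:**
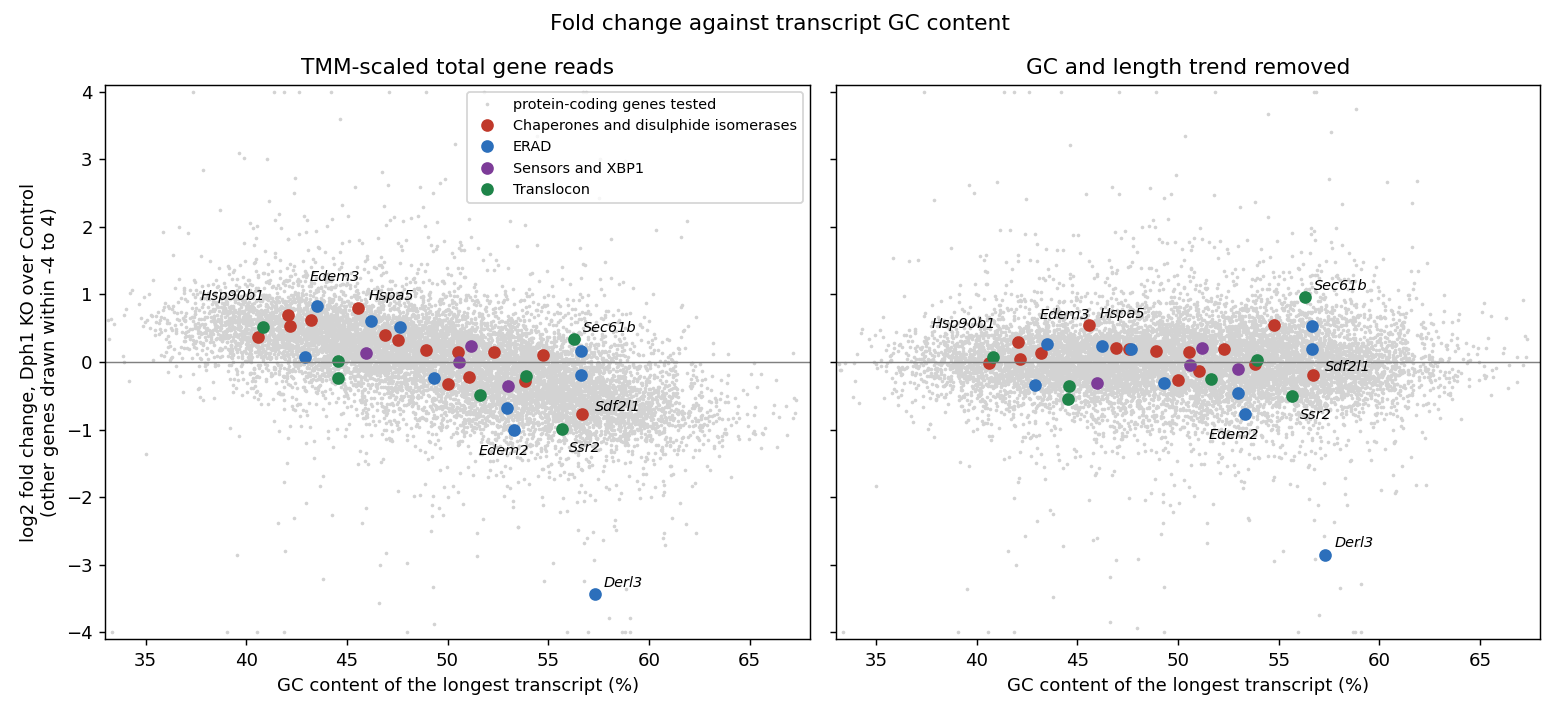
Log2 fold change (Dph1 KO over Control) against GC content of the longest transcript in percent, before (left) and after (right) removal of the trend with GC content and length; grey points are tested protein-coding genes and coloured points the members by role. Members of low GC content lie mostly above 0 at left, and Derl3 lies far below the others in both panels, at -3.43 and -2.85.

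After each library's trend with GC content and exon length was removed, the members' Spearman correlation was -0.07 with GC content and 0.23 with exon length. The trend was fitted on these same libraries, so weaker correlations there are largely built in and are not a result for the members. In that fit 1 member, Sec61b, was called higher and 4 members, Derl3, Edem2, Ssr1 and Ssr2, were called lower, where 5.45% and 6.16% of 11513 genes were. The members' median was 0.039, beside 0.0039 over all genes of the fit. Hspa5 had the largest positive value after Sec61b, at 0.55 (edgeR adjusted p = 0.0701), so its value moved less than that of Hsp90b1 (0.29), Dnajc3 (0.14) or Canx (0.048).

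Intron reads, which unspliced transcripts give, gave a second view of the same genes. They could be tested for 32 members, all but Dnajb9, Sdf2l1, Derl3 and Ssr1, which had few such reads. With library sizes and TMM factors of the gene reads, 6 members were called as having more intron reads in Dph1 KO (edgeR) and none as having fewer, where 2.75% of 9341 genes had more and 1.05% fewer. The 6 were Hsp90b1, Dnajb11, Dnajc3, Pdia4, Pdia6 and Sel1l. Introns held 10.98% and 8.26% of all gene reads in Dph1 KO and 8.64% and 6.24% in Control, and the median log2 fold change of all genes was 0.45 in this fit, beside 0.84 for the members.

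Pdia4 had 187 and 81 intron reads in Dph1 KO and 40 and 31 in Control (log2 fold change 1.58 with an SE of 0.38 and an edgeR adjusted p of 0.00805). Its gene reads, were not called and overlapped between genotypes. Hsp90b1 had 532 and 237 intron reads in Dph1 KO and 154 and 78 in Control (log2 fold change 1.39 with an SE of 0.39 and an edgeR adjusted p of 0.029). Sel1l had 232 and 91 intron reads in Dph1 KO and 56 and 42 in Control (log2 fold change 1.38 with an SE of 0.38 and an edgeR adjusted p of 0.0253). In all 3 genes Dph1 KO replicate 1 was far above the other libraries. Scaled by TMM factors of the intron reads themselves, which was added after the data were seen, the values were 1.09 for Pdia4, 0.92 for Hsp90b1 and 0.88 for Sel1l, and no member was called, where 0.225% of genes had more and 0.621% fewer.

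**Figure D5:**
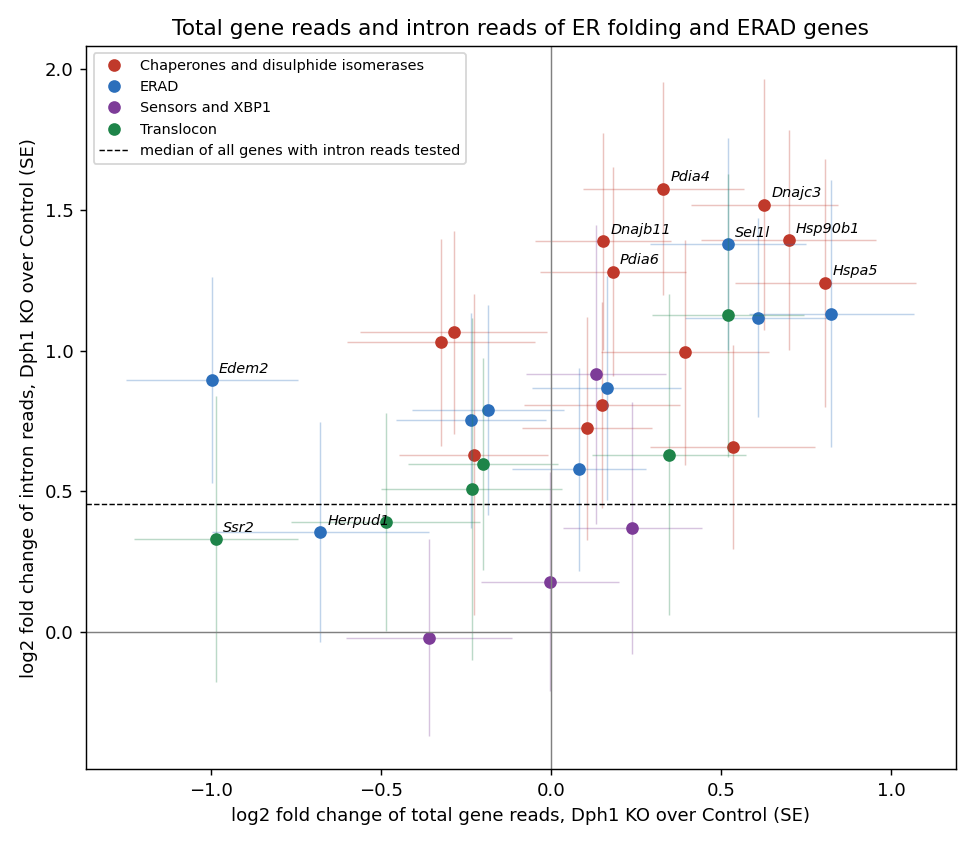
Log2 fold change (Dph1 KO over Control) of intron reads against that of total gene reads for the 32 members tested in both, with SE bars, by role; the dashed line is the median intron value of all genes tested, 0.45. Of the 32 members, 31 lie above 0 on the intron axis, where 7547 of the 9318 genes tested in both do. With the intron reads' own TMM factors (not drawn), 26 of the 32 members and 4643 of the 9318 genes were positive. Edem2 lies at 0.90 on the intron axis and at -0.998 on the gene axis.

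Of the genes that fell, Edem2 and Ssr2 could be set beside their intron reads. Edem2 had 110 and 68 intron reads in Dph1 KO and 41 and 35 in Control, a log2 fold change of 0.90 (SE 0.37; edgeR adjusted p = 0.141), opposite in sign to its gene reads. It was 0.43 with the intron reads' own scaling, also not called. Ssr2 had 24 and 17 intron reads in Dph1 KO and 18 and 8 in Control, a log2 fold change of 0.33 (SE 0.51) that was -0.12 with the intron reads' own scaling. Derl3 had 3 and 0 intron reads in Dph1 KO and 2 and 4 in Control, too few to compare.

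The motif shown above was common among these genes and rare elsewhere, as is known of ER stress genes. It was in the promoter of 9 of 30 members (30.0%), of 18 of 10400 tested genes (0.173%) and in 39 of all 32851 promoter windows (0.119%). A related element, ERSE-II (ATTGG, any 1 base, then CCACG, on both strands), was found in Dnajb11 and Herpud1, against 0.0769% of tested genes. Neither of these promoters holds the longer motif. The short core CCACG alone was in 24 of the 30 members, against 51.0% of tested genes, and it lies within both motifs. The element TGACGTGG was in no member window, against 1.03% of tested genes.

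Members with the longer motif did not move together. Of the 9, 6 had a positive and 3 a negative log2 fold change, with Hspa5 at the top (0.81) and Derl3 at the bottom (-3.43), and their median was 0.18. Of the 9, 1 fell and none rose, where 7.47% and 4.86% of all tested genes did. The 21 members with a promoter entry and no such motif had a median of 0.15, with 13 positive and 2 that fell. The other 9 tested genes with the motif had a median of 0.46, with 2 that rose and 1 that fell. A match describes letters in a window and is not evidence that a factor bound there.

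Other genes of the same pathways were read in 5 lists, beside 4.86% of all tested genes that rose and 7.47% that fell. At an unadjusted p under 0.05 (edgeR), 16.3% of all tested genes were higher and 17.9% lower. Of 12 tested genes of the oligosaccharyltransferase, the enzyme that attaches glycans to nascent proteins, none rose and 1 fell. At an unadjusted p under 0.05 (edgeR), 1 was higher and 4 were lower. The gene that fell was the subunit gene Tmem258 (listed under an older symbol). It had 26.7 and 42.5 CPM in Dph1 KO and 57.4 and 65.6 CPM in Control. The list's median log2 fold change was -0.080, and 0.00061 with the GC and length trend removed. Of 17 genes of signal recognition, membrane insertion and signal peptidase, 1 rose and none fell. At an unadjusted p under 0.05 (edgeR), 4 were higher and none was lower. The median was 0.30, and 0.10 with the GC and length trend removed. The gene that rose was Srp54a, the signal-binding subunit of the signal recognition particle. Srp54a had 19.6 and 13.6 CPM in Dph1 KO and 9.52 and 7.95 CPM in Control (log2 fold change 0.93).

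Of 29 tested genes of folding, glycan trimming and oxidation beyond the members, none rose and 2 fell. At an unadjusted p under 0.05 (edgeR), 4 were higher and 4 were lower. The median was -0.12, and -0.013 with the trend removed. Those that fell were Mogs, the glucosidase that removes the outermost glucose (log2 fold change -0.83), and the prolyl isomerase gene Fkbp11 (log2 fold change -0.88). Of 24 further ERAD genes 2 rose and 1 fell, with a median of 0.075 that was 0.038 with the trend removed. Those that rose were Erlec1, a lectin (0.88), and Ngly1, which strips glycans from proteins in the cytosol (0.82), and Tmub1, a ubiquitin-like membrane protein, fell (-0.98). Of 17 tested genes of the sensor pathways 1 rose and 2 fell, with a median of -0.43 that was -0.12 with the GC and length trend removed.

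In the sensor pathways Mbtps2, the protease that releases ATF6, rose (0.99), while Traf2, an adaptor of IRE1 (-0.77), and Bak1, which binds IRE1 and acts in cell death (-1.10), fell. With the GC and length trend removed, Traf2 (-0.72, edgeR adjusted p = 0.0192) and Bak1 (-0.60, edgeR adjusted p = 0.0235) were still called. Srp54a, Mogs, Fkbp11, Erlec1, Ngly1, Tmub1 and Mbtps2 were not, and Tmem258 had no GC value. Other genes were called only in that fit, where 5.45% of all its genes rose and 6.16% fell. In the oligosaccharyltransferase list Dad1 was lower (-0.95, edgeR adjusted p = 0.0392). In the folding list 1 gene was higher and 1 lower, the latter Erp44 (-0.57, edgeR adjusted p = 0.0364). Of the further ERAD genes 1 was higher and 1 lower. The main-fit counts of all these lists are to be read beside 4.86% of tested genes that rose and 7.47% that fell.

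Derl3 is known for high levels in secretory cells such as plasma cells and pancreatic acinar cells, so markers of both were read beside it. Of 16 plasma and B cell markers, 8 were tested, none rose and 3 fell: the joining chain gene Igj (log2 fold change -2.19), with 9 and 8 reads in Dph1 KO and 30 and 33 in Control, the B cell receptor gene Cd79a (-1.32) and Fkbp11 (-0.88), which also stands in the folding list. Of all tested genes 7.47% fell. The tested markers had a median of -0.71, and of -0.38 over the 6 in the fit with the GC and length trend removed. In that fit, which does not hold Igj, none of the 6 was called lower. The list's summed level was 136 and 144 TPM in Dph1 KO and 184 and 182 TPM in Control. Most of this was Txndc5, which also stands in the folding list. It had 100.6 and 101.3 TPM in Dph1 KO and 122.5 and 130.1 TPM in Control. The immunoglobulin genes Ighm, Ighg1, Igkc and Iglc1 were listed at 0 in all libraries. Of 19 acinar markers, 11 had no read in any library and 3 were tested, with none called; their sum was 20.0 and 18.1 TPM in Dph1 KO and 13.2 and 13.5 TPM in Control, while the 3 tested had 13.9 and 15.3 CPM in Dph1 KO and 12.9 and 15.3 CPM in Control. The part of plasma cells in the Derl3 result was not tested.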

How the data were processed

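RNA of frozen livers was made with an mRNA kit into directional libraries, per the labels' protocols. The submitters' processing notes name GRCm38 (mm10) as the build. No source used here gives the aligner, the counter or the use of strand. Per the file headers, the authors deposited whole-number read counts per gene (total, unique, exon and intron reads), and TPM and RPKM values from exon reads. The deposited RPKM values and the ratio columns, each a fraction from 0 to 1, were not used, and other deposited columns hold annotation.

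Total gene reads were tested with edgeR 4.0.16 in R 4.3.3 (filterByExpr, TMM, quasi-likelihood test, genotype as the only term) over 13303 genes, adjusted by Benjamini-Hochberg at 0.05. The SE is the log2 fold change divided by the square root of F. Alternatives used DESeq2 1.42.0, limma 3.58.1 (voom, and trend on log2(TPM + 1) or log2(TPM + 0.1)), other scalings, filters or classes of reads, and fits with each library left out, in which a lone library is assumed to vary like the pair of the other genotype. The trend on GC content (longest GENCODE M21 transcript) and exon length was fitted per library with mgcv 1.9.3 and entered as an offset. The test was checked on simulated counts that held no trend with GC content. The changed genes were drawn only from those above a minimum mean CPM, so the rates do not cover genes with few reads. The test called 11.3% of 62 genes changed 1.5-fold, 50% of 76 changed 2-fold and 100% of 62 changed 4-fold. Changes of 1.5-fold were thus mostly missed there. Of 119 calls, 12 were of unchanged genes. With no gene changed, 2 of 13105 genes were called. Depth was 19474596 to 21137358 gene reads per library; 89.3% to 90.2% were uniquely matched.

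The members and lists were chosen with earlier results of these data known. All 36 members are named, and of the other pathway and marker lists the called genes. Of 218 list entries 2 were not matched. Replicate numbers follow the order of the samples.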

Additional observations from a re-analysis of the deposited data

How the results depend on the processing

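Depth limits the genes with few reads, here Derl3 in Dph1 KO, Sec61g and the intron reads, and 2 libraries per genotype limit every call. No paired analysis was possible because the labels give no replicate numbers that the genotypes share. Of 640 member values under the alternatives, 521 kept their sign and their side of the threshold and 63 changed sign, whether called or not. Of those that kept their sign, 40 passed newly and 16 no longer passed. The causes were not tested.

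Against 0 members that rose, the count was 9 with no scaling, 4 with upper quartile scaling, 1 with no filter, 4 with DESeq2, 2 with exon reads, 6 with intron reads, 1 with the GC and length trend removed, and 0 to 11 with each library left out (11 when it was Dph1 KO replicate 2). Of all genes, 19.8% rose with no scaling, 8.06% with upper quartile scaling, 4.31% with no filter and 5.17% with DESeq2. With exon reads 6.45% rose, with intron reads 2.75%, and with the GC and length trend removed 5.45%. Fits with a library left out hold 1 library of a genotype, so their counts of members that rose or fell are not given. Against 4 that fell, the count was 3 with no scaling, where Sdf2l1 was not called and 5.93% of genes fell. It was 0 with log2(TPM + 1), with log2(TPM + 0.1) and with intron reads under either scaling, where at most 1.05% of genes fell. With the GC and length trend removed it was again 4, with Ssr1 in place of Sdf2l1, where 6.16% of genes fell.

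Against 646 genes that rose over all, 2634 did with no scaling, 1072 with upper quartile scaling, 2 with log2(TPM + 1), 13 with log2(TPM + 0.1), 257 with intron reads, 21 with intron reads under their own TMM factors, and 180 to 2599 with each library left out. Against 994 that fell, 1 did with log2(TPM + 1), 10 with log2(TPM + 0.1), 98 with intron reads, 58 with intron reads under their own factors, and 346 to 2806 with each library left out. Dph1 had a log2 fold change of -1.20 with log2(TPM + 1) and -1.23 with log2(TPM + 0.1), neither called, and of 0.59 with intron reads, or 0.15 under their own factors.

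Log2 fold changes that turned sign follow by setting. With no scaling they were 0.037 for Manf, 0.019 for Derl1, 0.078 for Syvn1, 0.27 for Ern1, 0.055 for Sec61a1 and 0.012 for Sec61g. With log2(TPM + 1) they were 0.17 for Manf, 0.057 for Calr, 0.098 for P4hb, 0.14 for Derl1, 0.20 for Syvn1, 0.030 for Xbp1, 0.35 for Ern1, 0.18 for Sec61a1 and 0.088 for Sec61g. With log2(TPM + 0.1) the same genes turned, with the same rounded values except 0.38 for Ern1 and 0.096 for Sec61g. With the GC and length trend removed they were -0.0075 for Dnajb9, -0.33 for Derl2, 0.20 for Syvn1, -0.32 for Atf6, 0.030 for Sec61a1 and -0.54 for Ssr1.

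With intron reads they were 0.63 for Manf, 1.03 for Calr, 1.06 for P4hb, 0.75 for Derl1, 0.90 for Edem2, 0.79 for Syvn1, 0.36 for Herpud1, 0.18 for Ern1, 0.60 for Sec61a1, 0.51 for Sec61g, 0.33 for Ssr2 and 0.39 for Ssr4. Under the intron reads' own factors they were 0.19 for Manf, 0.60 for Calr, 0.61 for P4hb, 0.29 for Derl1, 0.43 for Edem2, 0.33 for Syvn1, -0.056 for Eif2ak3, 0.18 for Sec61a1 and 0.059 for Sec61g. Ern1 was 0.078 with upper quartile scaling and 0.023 with exon reads, and Ssr1 was -0.016 with DESeq2 and with its size factors in edgeR. With each library left out, the values ran from -0.017 to 0.33 for Hyou1, -0.057 to 0.74 for Dnajb9, -0.14 to 0.16 for Ern1, -0.033 to 0.31 for Atf6, -0.44 to 0.0036 for Sec61g and -0.078 to 0.11 for Ssr1.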
